A study of Mus musculus with 8 samples.

Results

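The conjugating enzymes of the liver were examined in 3 classes: glutathione S-transferases (GST), UDP-glucuronosyltransferases (UGT) and sulfotransferases (SULT). Members were the gene symbols of the cytosolic, mitochondrial and microsomal GST families, of the Ugt1 to Ugt3 families and of the Sult1 to Sult6 families that a probe set of the array named alone, without pseudogenes. A total of 52 of 22180 genes met this rule: 21 GST, 10 UGT and 21 SULT genes. The choice used names and the mean level over all arrays, not the difference between the groups.

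Liver RNA of C57BL/6 mice was measured on 8 one-colour Affymetrix whole-transcript arrays, 4 from a group treated daily by mouth with rilpivirine and 4 from a control group. Rilpivirine is an HIV drug of the non-nucleoside reverse transcriptase inhibitor class, cleared mainly by oxidation through CYP3A enzymes. All 8 samples are labelled as non-alcoholic fatty liver disease, and the labels name a normal diet and a diet with 60% fat, given for 3 months, without saying which animals had which. The labels give no age, no dose in figures and no vehicle for the controls, and leave unsaid whether the samples are of separate mice, so that p-values measure the spread between samples, which may be technical. With 4 arrays a group, their number limits the precision, and in whole liver fewer cells of a type and less RNA per cell cannot be told apart.

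Conjugation makes drugs, hormones, bile acids and bilirubin more soluble in water, so that they can leave in bile or urine. GSTs join the tripeptide glutathione to reactive electrophiles, UGTs of the endoplasmic reticulum attach glucuronic acid from UDP-glucuronic acid, and cytosolic SULTs attach sulphate from the donor PAPS. In hepatocytes the receptors PXR, CAR and AHR and the oxidant sensor NRF2 can induce many of these genes, and several Sult genes of the mouse are sex-biased through growth hormone. Many of the genes lie side by side as copies of each other: in RefSeq's gene order 8 of the UGT members formed 1 unbroken run, as did 8 Sult2a members and 6 Gstm members. Such paralogs can be similar in sequence, so that signal of 1 copy at the probe set of another is possible and their values are uncertain to that extent.

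Promoters, here 250 bases before to 50 after a start site in RefSeq's GRCm38.p6, were listed for 45 of the 52 members, 35 of them with 1 start site. These are shown for 7 members that the results below turn on, 5′ to 3′ on the gene's strand. Capitals mark TTGCNNAA, a C/EBP-like motif, in the UGT genes and Gstm2, the antioxidant response element core TGACNNNGC, bound by NRF2, in Gsta3, and GTTAATNAT, the first letters of the motif of the liver factor HNF1, in the Sult genes. A match on the opposite strand is marked where it lies, so the C/EBP-like motif appears as its reverse complement in both marked UGT windows, and Ugt2b37, a near copy of Ugt2b5, has no match and no capitals.
Ugt2b5: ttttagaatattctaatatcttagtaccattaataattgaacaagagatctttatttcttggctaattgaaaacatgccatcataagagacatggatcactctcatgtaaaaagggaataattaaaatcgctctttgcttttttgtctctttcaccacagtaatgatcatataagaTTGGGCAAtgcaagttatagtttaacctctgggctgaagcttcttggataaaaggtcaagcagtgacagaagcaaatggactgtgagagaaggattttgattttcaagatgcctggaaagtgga
Ugt2b36: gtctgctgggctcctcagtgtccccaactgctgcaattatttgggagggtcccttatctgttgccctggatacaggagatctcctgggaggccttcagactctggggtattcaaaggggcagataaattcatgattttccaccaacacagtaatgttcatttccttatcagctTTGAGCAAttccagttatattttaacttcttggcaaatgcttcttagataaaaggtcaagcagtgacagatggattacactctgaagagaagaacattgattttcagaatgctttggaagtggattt
Ugt2b37: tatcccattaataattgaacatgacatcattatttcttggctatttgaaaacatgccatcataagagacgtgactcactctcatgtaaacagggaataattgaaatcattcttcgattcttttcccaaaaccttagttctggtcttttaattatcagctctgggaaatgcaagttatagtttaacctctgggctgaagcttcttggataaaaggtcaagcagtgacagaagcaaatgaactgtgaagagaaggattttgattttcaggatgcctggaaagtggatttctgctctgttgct
Gstm2: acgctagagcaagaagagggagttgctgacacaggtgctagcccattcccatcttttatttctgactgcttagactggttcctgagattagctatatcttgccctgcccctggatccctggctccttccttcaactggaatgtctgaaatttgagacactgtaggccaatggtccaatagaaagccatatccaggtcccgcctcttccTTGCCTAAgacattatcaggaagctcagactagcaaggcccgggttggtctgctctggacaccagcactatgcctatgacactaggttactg
Gsta3: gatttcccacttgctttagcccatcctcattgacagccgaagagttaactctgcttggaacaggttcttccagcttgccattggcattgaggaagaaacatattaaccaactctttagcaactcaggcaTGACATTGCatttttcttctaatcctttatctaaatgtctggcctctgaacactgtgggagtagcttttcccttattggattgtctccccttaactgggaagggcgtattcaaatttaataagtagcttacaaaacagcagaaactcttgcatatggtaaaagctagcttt
Sult2a4: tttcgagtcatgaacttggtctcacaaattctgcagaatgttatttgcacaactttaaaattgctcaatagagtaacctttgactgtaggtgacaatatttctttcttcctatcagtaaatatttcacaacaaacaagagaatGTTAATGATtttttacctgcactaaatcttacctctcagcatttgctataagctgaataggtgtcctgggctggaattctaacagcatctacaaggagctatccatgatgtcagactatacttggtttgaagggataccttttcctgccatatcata
Sult1d1: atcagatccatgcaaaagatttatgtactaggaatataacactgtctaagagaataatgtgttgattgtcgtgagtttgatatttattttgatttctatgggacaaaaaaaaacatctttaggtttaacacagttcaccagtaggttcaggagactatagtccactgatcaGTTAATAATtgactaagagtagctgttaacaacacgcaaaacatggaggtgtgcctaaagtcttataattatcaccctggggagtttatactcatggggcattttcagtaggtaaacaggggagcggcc
The windows are chr5:87140291-87140590, chr5:87092506-87092805, chr5:87254739-87255038, chr3:107986371-107986670, chr7:13989539-13989838 and chr5:87568957-87569256, all on the minus strand, and chr1:21240335-21240634 on the plus strand.

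Each motif was searched on both strands, and a match describes letters, not a bound site. A gene was counted if any of its windows had a match, whereas the shares of all promoters count single windows. The C/EBP-like motif was in 4 of 9 UGT genes with an entry (Ugt2a3, Ugt2b1, Ugt2b36 and Ugt2b5), in 5 of 19 GST and in 4 of 17 SULT genes, against 10.8% of all 32851 promoters of this length. Ugt2b5 and Ugt2b37, whose windows were 82.7% identical after alignment, differed in it: Ugt2b5 has a match starting 74 bases before the start site and Ugt2b37 has none. Between pairs of Ugt2b windows identity ran from 58.0% (Ugt2b34 and Ugt2b36) to 91.3% (Ugt2b37 and Ugt2b38), so their matches may not be independent. The antioxidant core was in Gsta3, Gstm7 and Mgst1, in 0 UGT and 0 SULT genes, and in 12.4% of all promoters. The HNF1 letters were in 5 of 17 SULT genes (Sult1d1, Sult2a3, Sult2a4, Sult2a5 and Sult2a6), in 0 GST and 0 UGT genes, and in 0.801% of all promoters. The 4 Sult2a windows among these are related in sequence, with 68.0% (Sult2a4 and Sult2a5) to 81.7% (Sult2a3 and Sult2a5) identity between pairs, so their matches may not be independent. GCGTG, the core to which AHR binds, was in 4 GST, 0 UGT and 3 SULT genes and in 32.4% of all promoters.

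No conjugating enzyme passed the test of rilpivirine against control. Of the 52 members, 39 lay above the filter on dim genes (a mean of 2.72 log2) and were tested among 16635 genes. After Benjamini-Hochberg adjustment limma called 0 of the 39 at 0.05, where 0% of all genes were called, with 0.890 as the smallest adjusted p among the members. Unadjusted, limma gave 1 of 39 a p under 0.05, Sult2a4, or 2.56%, against 5.21% of all genes. By direction, 1 member was higher at that p, against 2% of all genes, and 0 were lower, against 3.21%. The values of the 4 and 4 arrays did not overlap in 2 of 39 members, Gstm4 and Sult2a4, against 3.04% of all genes. Both were higher with rilpivirine, where 1.3% of all genes were higher and 1.73% lower without overlap. The 13 members under the filter were Gsto2, Ugt2b38 and 11 SULT genes.

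The 3 classes lay on different sides of the median of all genes, which was -0.03 log2. Of 20 tested GST genes 13 were above and 7 below control, with a median difference of 0.10. Of 9 UGT genes 8 were below and 1 above, with a median of -0.31. Of 10 SULT genes 5 were above and 5 below, with a median of -0.0001. Among all genes tested, 56.9% were below and 43.1% above control. The UGT median was 0.42 log2 under the GST median, a gap given as a description without a test, since the members were chosen with earlier results of these data known. The class medians moved with single arrays: the UGT median was -0.20 without rilpivirine replicate 1, -0.15 without replicate 2 and -0.15 without control replicate 4. Leaving out rilpivirine replicate 3 gave a GST median of 0.17, leaving out control replicate 1 gave 0.06, and it lay just below 0 without rilpivirine replicate 1 or 4. The SULT median, near 0, took either sign and ran from -0.12 without control replicate 2 to 0.05 without rilpivirine replicate 4.

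**Figure D1:**
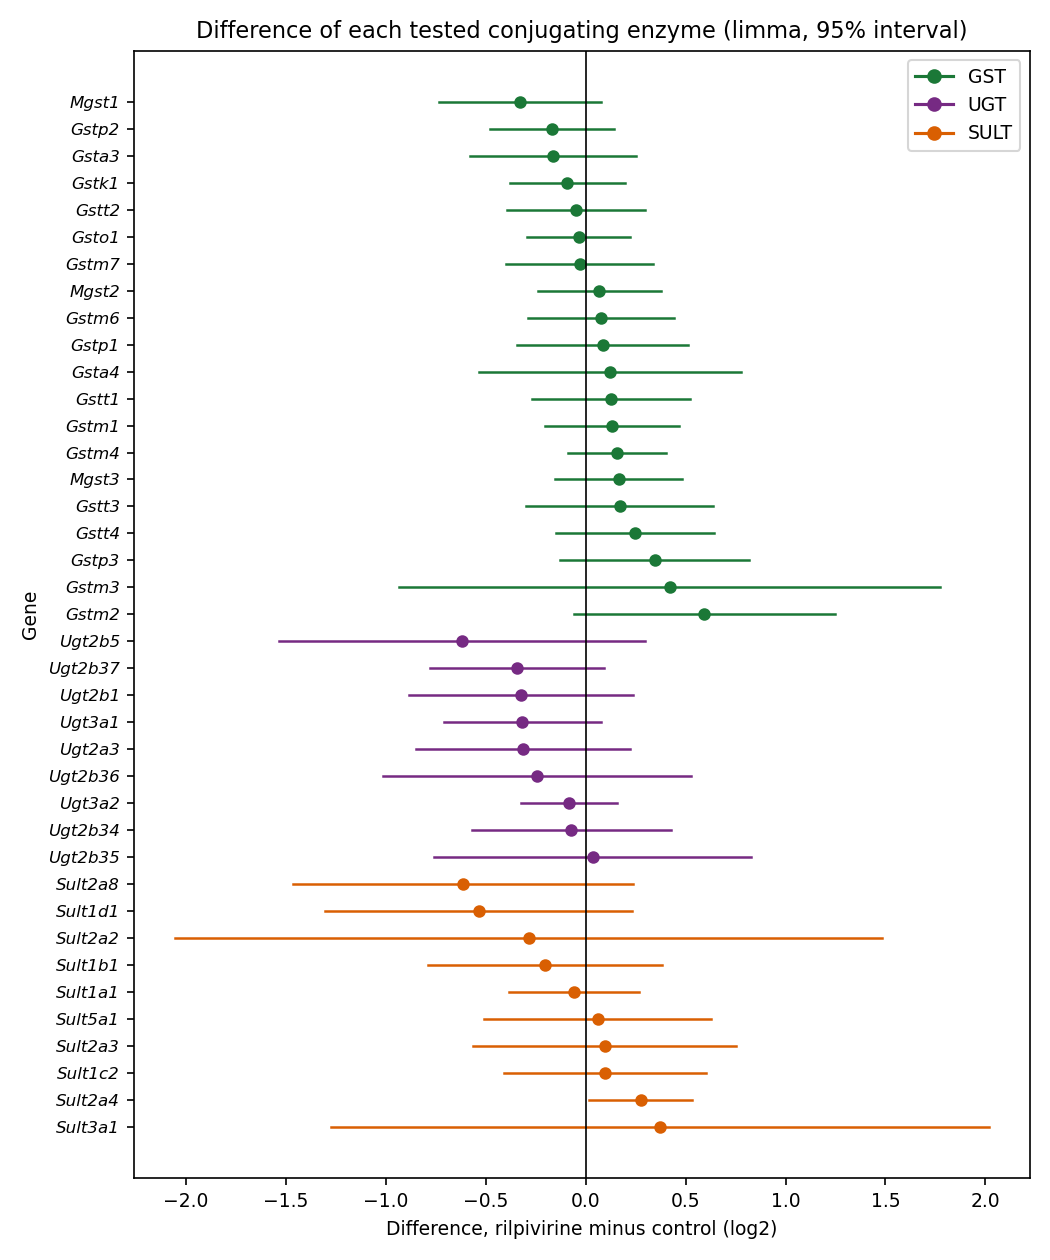
Difference of each of the 39 tested genes between rilpivirine and control on the log2 scale (x axis), with the gene on the y axis; points are limma estimates, lines their 95% confidence intervals, colours the enzyme class. The UGT points lie below 0 in 8 of 9 genes and the GST points above 0 in 13 of 20, and the interval leaves out 0 in Sult2a4 alone.

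Class means did not separate the groups. The mean deviation of the UGT genes from their mean over 8 arrays was -0.47, -0.56, 0.33 and 0.20 in rilpivirine replicates 1 to 4 and 0.19, -0.22, 0.08 and 0.45 in control replicates 1 to 4 (log2). Rilpivirine replicates 1 and 2 were the 2 lowest of the 8 arrays, whereas replicates 3 and 4 lay within the range of the controls. For the GST genes it was 0.19, -0.13, -0.22 and 0.34 in rilpivirine replicates 1 to 4 and -0.08, -0.07, 0.01 and -0.05 in control replicates 1 to 4. Here replicates 1 and 4 of the rilpivirine group were above every control and replicates 2 and 3 below every control. For the SULT genes it was -0.15, -0.08, 0.28 and -0.21 in rilpivirine replicates 1 to 4 and 0.30, -0.36, -0.04 and 0.26 in control replicates 1 to 4, and the rilpivirine arrays lay within the range of the controls.

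**Figure D2:**
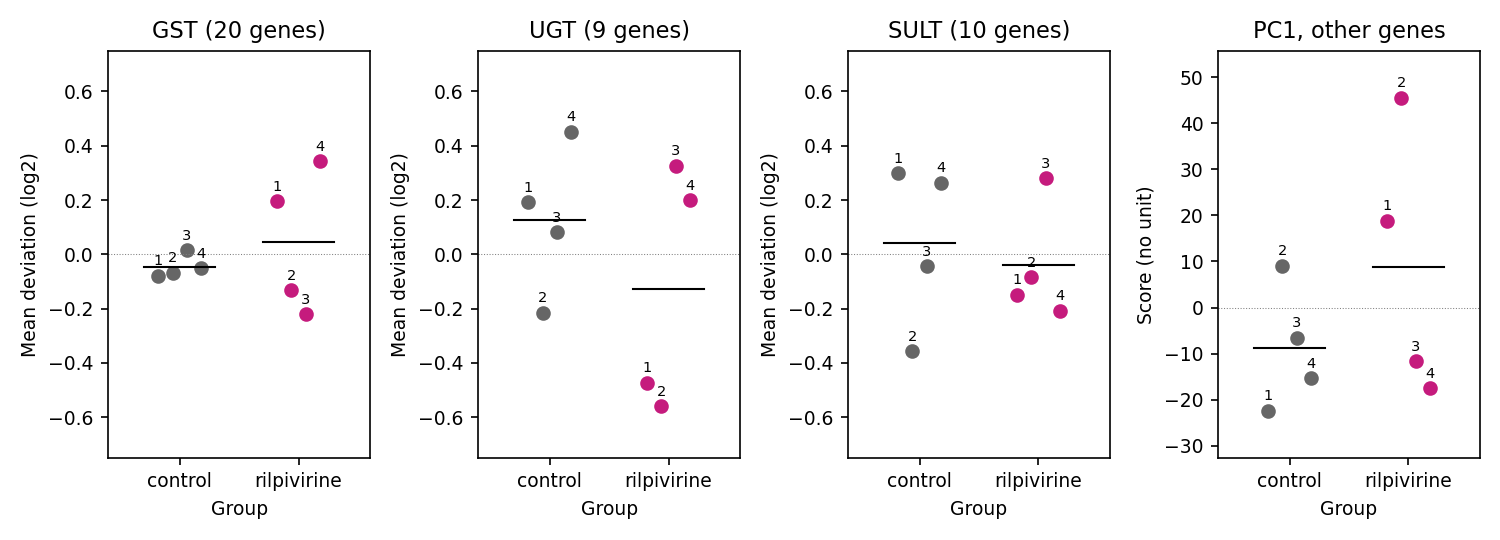
Mean deviation of each class from its mean over 8 arrays (log2, first 3 panels) and score on the first principal component of the other 16596 genes tested (no unit, right panel), by group; numbers are replicate numbers and bars the group means. Rilpivirine replicates 1 and 2 are lowest in the UGT panel and highest in the component panel, and the 4 rilpivirine arrays straddle the 4 controls in the GST panel.

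Rilpivirine replicates 1 and 2 also lay at 1 end of the main axis of variation (the first principal component) of genes outside the 3 classes. On this component (45.1% of the variance) they scored 18.8 and 45.5, against -22.4 to 9.08 in the other 6 arrays. Replicate 2 also had the lowest mean correlation with the other arrays, 0.967 against 0.979 to 0.984, whereas replicate 1 lay within the range of the rest, at 0.980. The mean of 78 small nucleolar RNA genes deviated by 0.27, 0.49, 0.03 and -0.20 log2 in rilpivirine replicates 1 to 4. In control replicates 1 to 4 it deviated by -0.61, 0.27, -0.05 and -0.20. Like the component score, it was highest in rilpivirine replicate 2 and lowest in control replicate 1. Rilpivirine replicate 1 and control replicate 2 came next to the highest on both. The part of these differences in the UGT values was not tested. Without both arrays (an alternative added once their values were known) the UGT median was 0.09 with 3 of 9 genes below control, the GST median 0.06 and the SULT median 0.07.

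Among the UGTs, Ugt2b5, which glucuronidates steroids and drugs, had the largest difference of the class in size. It measured 6.18, 7.22, 8.24 and 8.05 log2 in rilpivirine replicates 1 to 4 and 8.14, 7.46, 7.83 and 8.74 in control replicates 1 to 4. Rilpivirine replicates 1 and 2 were the lowest arrays, and replicates 3 and 4 lay among the controls. The difference was -0.62 ± 0.41 log2 (SE), with a 95% confidence interval of -1.53 to 0.29 and an unadjusted p of 0.164 in limma.

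Ugt2b1 and Ugt2a3, further UGTs of hepatocytes in the same run of genes, also had rilpivirine replicates 1 and 2 below replicates 3 and 4. Ugt2b1 measured 9.38, 9.19, 10.31 and 9.90 with rilpivirine and 10.02, 9.68, 9.82 and 10.55 in controls. Its difference was -0.32 ± 0.26 (SE). For Ugt2a3 the values were 7.92, 7.77, 8.76 and 8.39 with rilpivirine and 8.63, 8.0, 8.51 and 8.96 in controls, a difference of -0.31 ± 0.24 (SE). In both genes rilpivirine replicates 1 and 2 were the 2 lowest arrays and control replicate 4 the highest.

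Ugt2b36 measured 7.36, 6.86, 8.44 and 8.16 with rilpivirine and 8.33, 7.59, 7.38 and 8.49 in controls, and Ugt2b34 9.29, 9.10, 10.01 and 9.96 and 9.98, 9.30, 9.56 and 9.81. Their differences were -0.24 ± 0.35 and -0.07 ± 0.23 (SE). Ugt2b35 was the single UGT above control, by 0.04 ± 0.36 (SE), from 6.29, 6.23, 7.51 and 8.02 with rilpivirine and 7.22, 6.63, 6.91 and 7.14 in controls. Its rilpivirine arrays split widely, with replicates 1 and 2 below and 3 and 4 above every control. Without replicates 1 and 2 the difference of Ugt2b35 was 0.79 (limma adjusted p = 0.750).

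Rilpivirine replicates 1 and 2 were both below replicates 3 and 4 in 7 of 9 UGT genes, in 2 of 20 GST genes and in 4 of 10 SULT genes, against 25.7% of all genes tested. The 2 GST genes were Gsta3 and Mgst1, and the SULT genes Sult1a1, Sult1b1, Sult1d1 and Sult2a8. The UGT exceptions were Ugt2b37 and Ugt3a2. Ugt2b37 was dim, with 3.03, 2.53, 3.12 and 2.87 in the rilpivirine group and 3.09, 2.83, 3.75 and 3.27 in controls, close to the filter value of 2.72, and differed by -0.34 ± 0.20 (SE). Arrays 1 and 2 were picked for this count after their values had been seen.

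The Ugt3a enzymes use other sugars, such as N-acetylglucosamine and glucose, in place of glucuronic acid. Ugt3a1 measured 8.18, 7.95, 8.44 and 8.45 with rilpivirine and 8.21, 8.47, 8.62 and 8.99 in controls, a difference of -0.32 ± 0.18 (SE) with overlapping groups. Ugt3a2 had the smallest SD in both groups among the UGTs, at 10.11, 10.09, 10.10 and 9.97 and 10.10, 10.07, 10.32 and 10.10, and its 95% confidence interval was -0.32 to 0.16.

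**Figure D3:**
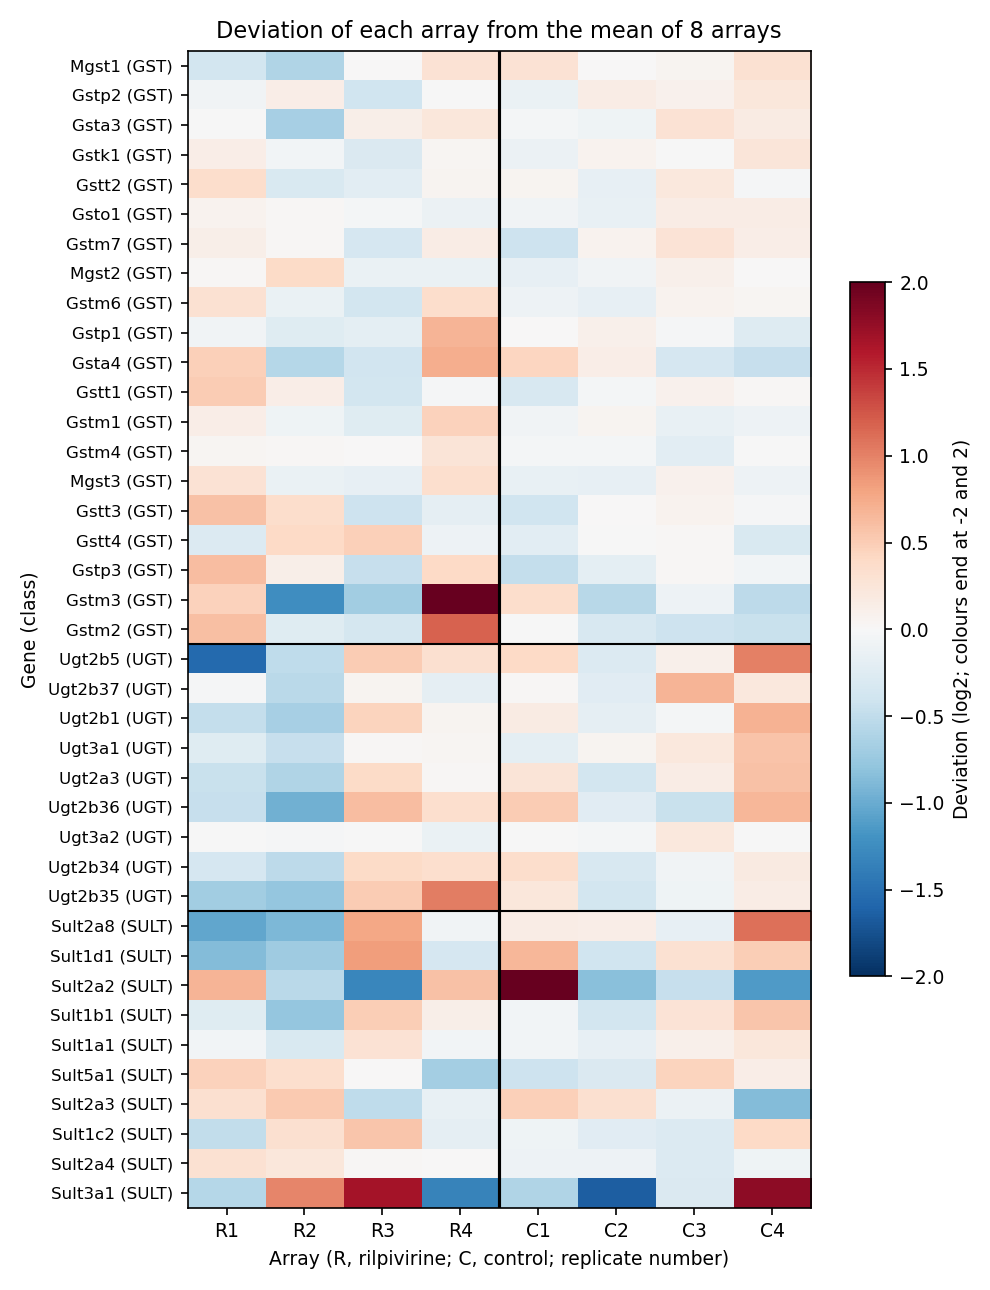
Deviation of each array (x axis, R for rilpivirine and C for control with the replicate number) from the gene's mean over 8 arrays, in colour on the log2 scale, for the 39 tested genes (y axis) ordered by class and difference. Most UGT rows are blue in R1 and R2 and red in R3, R4 or C4, while Gstm2 and Gstm3 are darkest red in R4 and Sult2a2 in C1.

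Among the GSTs the mu class, soluble enzymes that detoxify epoxides and other electrophiles, held the largest differences. Gstm2 measured 7.67, 6.84, 6.72 and 8.26 log2 in rilpivirine replicates 1 to 4 and 7.07, 6.75, 6.67 and 6.63 in control replicates 1 to 4. Replicates 1 and 4 were above every control, and replicates 2 and 3 lay among the controls. The difference was 0.59 ± 0.30 log2 (SE), a 1.51-fold higher mean, with an interval of -0.06 to 1.25 and an unadjusted p of 0.07 in limma.

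In Gstm3 replicates 1 and 4 were again above every control, but replicates 2 and 3 were below every control, with 7.88, 6.17, 6.71 and 9.73 in the rilpivirine group and 7.76, 6.85, 7.31 and 6.89 in controls. Its rilpivirine SD was 1.58, against 0.42 in controls, and replicate 2 was the lowest and replicate 4 the highest of the 8 arrays. The difference of 0.42 ± 0.61 (SE) became -0.28 without rilpivirine replicate 4. Gstm1, an abundant mu class enzyme of mouse liver, measured 8.49, 8.27, 8.12 and 8.81 with rilpivirine and 8.29, 8.42, 8.21 and 8.26 in controls, and replicate 4 was again the highest array.

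Gstm4 was the GST without overlap of the groups, at 5.93, 5.92, 5.90 and 6.15 and 5.86, 5.86, 5.69 and 5.89. The gap between the lowest rilpivirine and the highest control array was small beside the spread, and the difference was 0.16 ± 0.11 (SE) with an unadjusted p of 0.192 in limma. Gstm6 and Gstm7 differed by 0.08 ± 0.17 and -0.03 ± 0.17 (SE).

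The alpha class reduces and conjugates products of lipid peroxidation. Gsta4, which is selective for the aldehyde 4-hydroxynonenal, measured 8.86, 7.81, 8.0 and 9.12 with rilpivirine and 8.81, 8.51, 8.05 and 7.93 in controls, a difference of 0.12 ± 0.30 (SE). Replicates 1 and 4 were high here too, but control replicate 1 lay close to rilpivirine replicate 1. Gsta3, whose promoter holds the antioxidant core printed above, measured 9.08, 8.43, 9.20 and 9.31 and 9.05, 9.0, 9.38 and 9.25, with the lowest value in rilpivirine replicate 2. Its difference was -0.16 ± 0.19 (SE).

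Of the 3 pi class genes, Gstp1, the main pi enzyme, differed by 0.08 ± 0.19 and Gstp2 by -0.17 ± 0.14 (SE). Gstp1 measured 10.48 in rilpivirine replicate 4, against 9.56 to 9.90 in the other 7 arrays. Gstp3 had values of 8.07, 7.58, 7.0 and 7.85 with rilpivirine and 6.98, 7.26, 7.48 and 7.40 in controls, a difference of 0.34 ± 0.21 (SE) with replicate 3 among the lowest arrays.

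In the theta class, which handles small halogenated molecules and sulphate esters, Gstt1, Gstt2, Gstt3 and Gstt4 differed by 0.13, -0.05, 0.17 and 0.25 log2. Gstt1 measured 9.89, 9.52, 9.02 and 9.36 with rilpivirine and 9.06, 9.35, 9.47 and 9.40 in controls, with replicate 1 the highest and replicate 3 the lowest array. Gstt3 had its highest and lowest arrays in the same replicates, at 6.97, 6.74, 5.96 and 6.21 against 5.99, 6.39, 6.45 and 6.36. Gstt4 was dim, with means of 2.97 and 2.72.

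Microsomal GSTs sit in the membrane and are a family of their own. Mgst1, which protects membranes against peroxidation, had the largest difference below control among the GSTs. It measured 8.94, 8.71, 9.31 and 9.59 with rilpivirine and 9.59, 9.31, 9.36 and 9.61 in controls, and rilpivirine replicates 1 and 2 were the 2 lowest arrays, as in the UGTs. The difference was -0.33 ± 0.18 (SE), and -0.01 without those replicates. Mgst3 and the dim Mgst2 differed by 0.16 ± 0.14 and 0.07 ± 0.14 (SE).

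The mitochondrial and peroxisomal Gstk1 and the omega class Gsto1, which reduces arsenicals, had narrow intervals. Their differences were -0.09 (-0.38 to 0.20) and -0.04 (-0.29 to 0.22) log2, 95% confidence intervals. Gsto2 was under the filter, at means of 2.40 with rilpivirine and 2.34 in controls.

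The rilpivirine arrays varied more than the controls in most GSTs. The SD of the rilpivirine group was the larger in 18 of 20 GST genes, in 6 of 9 UGT and in 7 of 10 SULT genes, against 69.8% of all genes tested. The highest of the 8 values was in rilpivirine replicate 1 or 4 in 12 of 20 GST genes, 1 of 9 UGT genes and 2 of 10 SULT genes, against 29.3% of all genes. Replicate 4 alone held it in 8 GST genes, or 40%, against 16.6% of all genes. Arrays 1 and 4 were picked for these counts after their values had been seen. Among the 8 genes were the neighbouring paralogs Gstm1, Gstm2, Gstm3, Gstm4 and Gstm6, which may share signal. Rilpivirine replicate 4 was also the highest array for some adipocyte markers. Retn, the adipokine resistin, measured 3.32, 3.23, 3.14 and 5.38 with rilpivirine and 3.25, 2.96, 3.04 and 3.30 in controls. Cidec, a lipid droplet protein, measured 5.88, 5.01, 5.09 and 7.85 and 6.49, 5.61, 5.59 and 5.54. Fabp4 and Plin1 were also highest there. So was Adipoq, at 2.85 against 2.34 to 2.82 in the other arrays, but its mean was under the filter. Lep, Lipe, Slc2a4 and Pck1 were not: Lipe, at 4.80, lay below every control, and Pck1, at 10.73, had its lowest value there. Pck1 was also on the hepatocyte list, so its level does not report fat cells alone. The mean of the 8 tested adipocyte markers deviated by -0.14, -0.32, -0.28 and 0.65 in rilpivirine replicates 1 to 4 and 0.17, -0.15, 0.05 and 0.02 in control replicates 1 to 4 (log2), and the part of these values in the GST levels was not tested. Without rilpivirine replicate 4 the GST median was -0.01, with 11 of 20 genes below control, and without replicate 1 it was -0.0039, with 10 of 20 below.

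**Figure D4:**
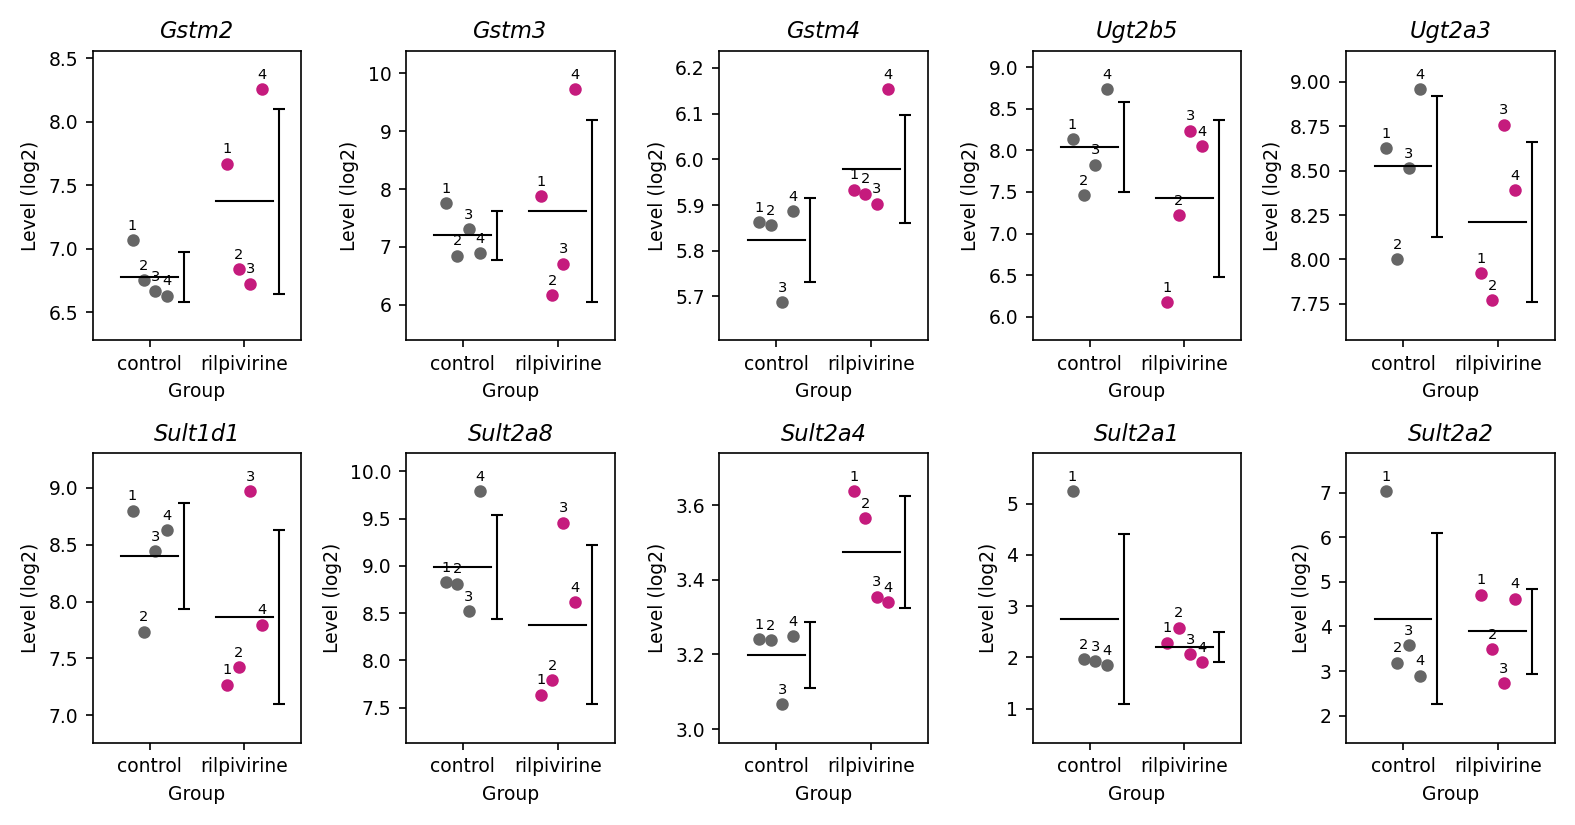
Level of 10 members on the log2 scale (y axes, each with its own range that does not start at 0) by group; points are arrays with their replicate number, horizontal bars group means and error bars the SD (n = 4). Rilpivirine replicate 4 is highest in Gstm2, Gstm3 and Gstm4, replicates 1 and 2 are lowest in Ugt2a3, Sult1d1 and Sult2a8, and control replicate 1 lies far above the rest in Sult2a1 and Sult2a2.

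Among the sulfotransferases, Sult2a8, a bile acid sulfotransferase of mouse liver, had the largest difference in size. It measured 7.64, 7.79, 9.46 and 8.62 log2 in rilpivirine replicates 1 to 4 and 8.83, 8.81, 8.52 and 9.79 in control replicates 1 to 4. Rilpivirine replicates 1 and 2 were the 2 lowest arrays, and replicates 3 and 4 lay among the controls. The difference was -0.61 ± 0.39 (SE), with an interval of -1.46 to 0.24 and an unadjusted p of 0.141 in limma; without those 2 arrays it was 0.05.

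Sult1d1, which sulphates catecholamines and other small amines and phenols, also had rilpivirine replicates 1 and 2 as its 2 lowest arrays. Its highest array was rilpivirine replicate 3, not control replicate 4 as in Sult2a8. It measured 7.27, 7.42, 8.97 and 7.80 with rilpivirine and 8.80, 7.73, 8.44 and 8.63 in controls, a difference of -0.54 ± 0.35 (SE). Sult1b1, of thyroid hormones and phenols, and Sult1a1, the main phenol sulfotransferase, differed by -0.20 ± 0.27 and -0.06 ± 0.15 (SE). Replicates 1 and 2 were below replicates 3 and 4 in these as well, in Sult1a1 by less than the rounding, with 9.77 in both replicates 1 and 4.

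Sult2a4 was the only member with an unadjusted p under 0.05 (0.0379 in limma, adjusted p = 0.890). It was dim, at 3.64, 3.56, 3.36 and 3.34 with rilpivirine and 3.24, 3.24, 3.07 and 3.25 in controls, and higher in 4 of 4 arrays than every control. The difference was 0.28 ± 0.12 (SE), a 1.21-fold higher mean. It was 0.15 without rilpivirine replicates 1 and 2, and its unadjusted p was above 0.05 without any 1 of these or of the 4 controls.

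Its paralogs did not share this order. Sult2a2 measured 4.71, 3.49, 2.73 and 4.62 with rilpivirine and 7.03, 3.19, 3.58 and 2.90 in controls, so that control replicate 1 lay above all other arrays. Sult2a1, a hydroxysteroid and bile acid sulfotransferase of the female mouse liver, had a mean under the filter and exceeded its value of 2.72 in the same array alone, with 2.28, 2.58, 2.05 and 1.91 and 5.24, 1.96, 1.93 and 1.85. Sult2a3 differed by 0.09 ± 0.30 (SE), and Sult2a5, Sult2a6 and Sult2a7 were under the filter. The difference of Sult2a2 was -0.29 ± 0.80 (SE), and 0.67 without control replicate 1.

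Sult3a1, a female-biased enzyme that sulphates amines, varied widely in both groups, at 4.0, 5.55, 6.23 and 3.23 with rilpivirine and 3.96, 2.92, 4.28 and 6.36 in controls. The SDs were 1.38 and 1.44, and the interval of the difference was -1.27 to 2.02. Sult1c2 and Sult5a1 differed by 0.10 ± 0.23 and 0.06 ± 0.26 (SE). Sult1e1, the estrogen sulfotransferase, was under the filter, at means of 2.62 with rilpivirine and 2.42 in controls. Sult1c1, Sult2b1, Sult3a2, Sult4a1, Sult6b1 and Sult6b2 were also under it, with group means between 1.87 and 2.71.

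The supply and turnover of the 3 donors were described from lists of other genes, in which limma called 0 genes after adjustment. Among all genes tested, 56.9% were below control. Of 10 tested genes of glutathione supply and recycling 5 were above and 5 below control (median 0.01). The gamma-glutamylcyclotransferase Ggct differed by 0.27 ± 0.11 (SE) with no overlap of the groups, Slc3a2, the heavy chain of the cystine transporter, by 0.32 ± 0.14 and Cbs, of cysteine synthesis, by 0.35 ± 0.19 (SE). Gclc, the catalytic subunit of the rate-limiting step, differed by 0.33 ± 0.25 (SE). Of 4 genes on the UDP-glucuronic acid list 3 were below control, among them the glucuronidase Gusb, which does not make the donor, at -0.10 ± 0.13 (SE). Ugdh, which makes the donor, differed by 0.10 ± 0.31 and the donor's transporter Slc35d1 by -0.13 ± 0.15 (SE). The mean of the 4 genes deviated by -0.28, -0.36, 0.06 and 0.47 log2 in rilpivirine replicates 1 to 4. In control replicates 1 to 4 it deviated by 0.19, -0.11, -0.05 and 0.07. Of 11 genes of PAPS and sulphate supply 8 were below control (median -0.02), with -0.31 ± 0.20 for the PAPS synthase Papss1, -0.25 ± 0.15 for Bpnt1, which breaks down the spent donor, and 0.36 ± 0.15 for the persulphide dioxygenase Ethe1 (SE).

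Of 16 receptors and factors that control conjugation 13 were below control, against 56.9% of all genes, with a median of -0.21. Of the 16, 3 were lower at an unadjusted p under 0.05 in limma, against 3.21% of all genes. These were Mafg, a small MAF partner of NRF2, at -0.39 ± 0.13, the fatty acid receptor Ppara at -0.41 ± 0.15 and Nr1i2, which encodes PXR, at -0.43 ± 0.19 (SE). CAR (Nr1i3), AHR (Ahr) and NRF2 (Nfe2l2) differed by -0.23, 0.21 and 0.06 log2. The list mean deviated by -0.27 to 0.01 log2 with rilpivirine and by 0.03 to 0.12 in controls. Of 14 NRF2 targets outside the 3 classes 10 were above control, against 43.1% of all genes (median 0.10). The difference was 0.35 ± 0.13 for the exporter Abcc4, 0.36 ± 0.26 for Pgd of the pentose phosphate pathway and 0.07 ± 0.20 for Nqo1, a classic target (SE). The mean of the 14 targets deviated by 0.08, -0.26, -0.17 and 0.58 log2 in rilpivirine replicates 1 to 4, highest in replicate 4 as in many GSTs. In control replicates 1 to 4 it deviated by -0.01, -0.06, -0.04 and -0.14.

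Of 10 other conjugating transferases 9 were below control, against 56.9% of all genes, with a median of -0.25. Their mean deviated by -0.31, -0.39, 0.18 and -0.07 log2 in rilpivirine replicates 1 to 4. In control replicates 1 to 4 it deviated by 0.06, -0.06, 0.19 and 0.41. Nnmt, which methylates nicotinamide, differed by -0.89 ± 0.25 (SE) with no overlap of the groups and an unadjusted p of 0.00435 in limma (adjusted p = 0.795). The arsenic methyltransferase As3mt and the amine methyltransferase Inmt differed by -0.33 ± 0.19 and -0.29 ± 0.18 (SE). Of 9 transporters of conjugates 7 were below control, against 56.9% of all genes (median -0.08). The exporters Abcc4 and Abcc3 were the exceptions, at 0.35 ± 0.13 and 0.34 ± 0.16 (SE), while the canalicular exporters Abcc2 and Abcg2 differed by -0.03 ± 0.15 and -0.25 ± 0.17 (SE). The transporter mean deviated by -0.18, -0.24, 0.19 and 0.12 log2 in rilpivirine replicates 1 to 4. In control replicates 1 to 4 it deviated by 0.02, -0.09, 0.03 and 0.15. For both lists rilpivirine replicates 1 and 2 were the lowest arrays.

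Sex-biased liver genes were set beside the sex-biased sulfotransferases. Of 16 tested female-predominant genes 11 were below control (median -0.21) and of 17 male-predominant genes 11 were below control (median -0.06). Among all genes tested, 56.9% were below control. The male-predominant Cyp4a12a and Hsd3b5 were under the filter. Cux2, a female-biased repressor of male genes, differed by -0.57 ± 0.13 (SE) with no overlap of the groups, and Fmo2 and Acot3 of the female list by -0.94 ± 0.29 and -0.60 ± 0.22 (SE). On the male list, the steroid dehydrogenase Hsd3b2 and the complement genes C8b and C6 differed by -1.0 ± 0.27, -0.62 ± 0.22 and -0.46 ± 0.24 (SE). The female list deviated by 0.02, -0.10, -0.12 and -0.05 log2 in rilpivirine replicates 1 to 4. In control replicates 1 to 4 it deviated by 0.13, -0.35, 0.24 and 0.23. Its genes were mixed in control replicate 1, the array with high Sult2a1 and Sult2a2. Of the 8 arrays, this one was highest in Fmo2, Cyp2a4 and Cyp3a44 and lowest in Cyp2b9, Cyp2b13 and A1bg. The part of this in the Sult2a values was not tested. Neither Cux2 nor Hsd3b2 passed after adjustment (limma adjusted p = 0.772 and 0.777).

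Hepatocyte markers were high in every array, as the tissue label says: the mean level of 14 tested markers was 11.4 to 11.6 log2 with rilpivirine and 11.5 to 11.7 in controls. Of these 9 were below and 5 above control. Sinusoidal endothelial markers were above control in 9 of 10 genes, with list means deviating by -0.14 to 0.28 log2 with rilpivirine and -0.33 to 0.04 in controls. Macrophage markers were below in 9 of 10 genes, deviating by -0.33 to 0.14 with rilpivirine and -0.08 to 0.27 in controls. Muscle markers were above control in 8 of 8 tested genes, deviating by -0.15 to 0.28 with rilpivirine and -0.20 to 0.10 in controls. Their mean level was low, at 3.78 to 4.22 log2 with rilpivirine and 3.73 to 4.03 in controls. Among all genes tested, 43.1% were above and 56.9% below control. Markers of bile ducts, stellate cells, lymphocytes, fat, red blood cells, pancreas and intestine had medians of -0.09 to 0.14. Above the filter were 6 of 7 bile duct, 10 of 10 stellate, 6 of 9 lymphocyte, 8 of 9 adipocyte, 3 of 4 red blood cell, 6 of 7 pancreas, 9 of 10 intestine and 8 of 10 muscle markers with a probe set. The part of these cell types in the differences of the conjugating enzymes was not tested.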

How the data were processed

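Log2 expression values of 41345 probe sets were deposited by the authors, made with RMA (background correction, quantile normalization, probe summary); RMA and limma are named in the submitters' processing notes. Genome build, versions and batches: not given in the sources used here. Quantile normalization removes differences in total signal between arrays. Per the labels, 300 ng of Trizol-extracted RNA entered each assay. Gene names came from the platform annotation, in which 23521 probe sets had 1 symbol, 1814 several and 16010 none listed. Those with 1 symbol were used, keeping the highest mean over 8 arrays per symbol (22180 genes, of which 5545 under the 25th percentile of the mean were left out). Each of the 52 members had 1 probe set, and all matched RefSeq by Entrez identifier.

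Rilpivirine minus control was estimated in R 4.3.3 (limma 3.58.1: lmFit, then eBayes; two-sided tests; no covariate), with Benjamini-Hochberg adjustment over the 16635 genes tested. Scripts were tested on simulated data. Members and lists were chosen with earlier results of these data known. Genes were named by a rule: members with an unadjusted p under 0.05 or without overlap, the smallest p of each subfamily, a fixed set of members, and the 3 smallest p of each pathway list; Ugt1a, Gsta1, Gsta2 and Gstz1 had no probe set of their own, and further genes and array counts were chosen after values were seen. Alternatives were other normalizations, filters, moderation, array weights, a replicate block and samples left out. Sequences are RefSeq's, GRCm38.p6. Figures used matplotlib 3.10.9.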

Additional observations from a re-analysis of the deposited data

Results flagged for a closer look

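In 104 groups of 4 arrays (52 genes in both groups), 10 had an array farther from the others than Dixon's criterion at 95% allows. The nominal share by chance is about 5% of groups. The share among all genes was not counted, so whether the members exceed it was not tested. The groups also include genes under the filter and neighbouring paralogs, such as Sult2a1 and Sult2a2, both flagged in the same array. The Sult2a genes gave the widest gaps. Sult2a1 measured 5.24 log2 in control replicate 1, against 1.85 to 1.96 in the other controls, and its neighbour Sult2a2 measured 7.03 there, against 2.90 to 3.58. In Sult2a4, control replicate 3 was low at 3.07, with the others at 3.24 to 3.25. Control replicate 4 was high in Sult3a2, at 2.76 against 1.75 to 1.90, and low in Sult6b1, at 1.78 against 1.89 to 1.90; both genes were under the filter. Gstm4 had a high rilpivirine replicate 4 of 6.15, against 5.90 to 5.93, and a low control replicate 3 of 5.69, against 5.86 to 5.89. Ugt3a2 had a low rilpivirine replicate 4 of 9.97, against 10.09 to 10.11, and a high control replicate 3 of 10.32, against 10.07 to 10.10. The dim Ugt2b38 was high in rilpivirine replicate 2, at 1.99 against 1.32 to 1.43.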

How the results depend on the processing

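Under all 17 alternatives limma called 0 members after adjustment. The count of members above control at an unadjusted p under 0.05, 1 in all arrays, was 3 after a further quantile normalization, 2 with array weights, 0 with a filter at the 50th percentile and 0 to 3 with each sample left out. The count below control, 0 in all arrays, was 0 to 3 with each sample left out, both highs being without rilpivirine replicate 3 (Gstm2, Gstp3 and Sult2a4 above, Sult1d1, Sult2a8 and Ugt2b1 below). The count above was 0 without rilpivirine replicate 1 or any 1 control, and the count below was 1 without rilpivirine replicate 4 (Mgst1), control replicate 1 (Ugt3a1) or control replicate 2 (Ugt2b37). With each sample left out the medians ran from -0.01 to 0.17 for GST, -0.42 to -0.15 for UGT and -0.12 to 0.05 for SULT genes. The UGT median became 0.087 without rilpivirine replicates 1 and 2 together, and after a further quantile normalization 4 of 20 GST genes were below control. Whether the replicate numbers pair the samples is not stated, and with 4 arrays a group the values cannot decide it. Within-group deviations of same-numbered arrays correlated at -0.25, 0.46, -0.09 and 0.07, and those of differently numbered arrays at -0.47 to 0.39. With the replicate block 2 members, Ugt2b37 and Ugt3a1, were below control at an unadjusted p under 0.05 and 1, Gstm2, above it. Values of single members moved by more than 1 SD between replicates in 5 cases, all without rilpivirine replicates 1 and 2. Dim members, such as most SULT genes, have little signal over background.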

Other observations

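Outside the members, 9 probe sets list a symbol of these families beside other symbols, and 14 family symbols occur on such probe sets alone, among them all Ugt1a symbols. Of 2 probe sets that list several Ugt1a isoforms, which share their last exons and include the bilirubin-conjugating enzyme, the one with 5 symbols measured 6.29, 6.12, 6.20 and 6.16 log2 in rilpivirine replicates 1 to 4 and 5.82, 5.33, 5.99 and 6.08 in control replicates 1 to 4. The groups did not overlap, and the difference was 0.39 ± 0.17 (SE). Its limma adjusted p was 0.890, from a separate fit adjusted over 27035 probe sets. The other, with 8 symbols, measured 6.01, 5.62, 5.98 and 5.99 and 6.19, 5.85, 6.04 and 5.99 and differed by -0.12 ± 0.13 (SE). A probe set shared by alpha class GST symbols and 2 predicted genes measured 5.87, 4.47, 5.16 and 7.89 with rilpivirine and 6.84, 5.60, 5.47 and 5.54 in controls. It was highest in rilpivirine replicate 4 and lowest in replicate 2, as was Gstm3, but control replicate 1 lay above rilpivirine replicate 1. A further probe set with Gsta1 and Gsta2 was also highest in rilpivirine replicate 4, at 6.22, but lowest in replicate 3, at 5.02. Another, under the filter, was highest in rilpivirine replicate 2, at 3.0.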
